A study of Mus musculus with 12 samples.

Results

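The regions described here are stretches of the mouse genome that carried NKX2-1 and PRDM16 but no PRDM3 peak, away from promoters marked by H3K4me3, in fetal lung epithelium. They were selected on the deposited peak lists. An NKX2-1 stretch of at least 20 bases on chromosomes 1 to 19 had to be covered in at least 2 of 3 libraries. It had to overlap a stretch covered in both PRDM16 libraries, and no peak of the PRDM3 library or of any H3K4me3 library. This left 1320 regions (the members) among 23273 NKX2-1 regions, of which 7993 were distal, meaning that they overlapped no H3K4me3 peak. All cells came from pooled fetal lungs of wild-type C57Bl6 mice at E17.5 (embryonic day), minced, dissociated with enzymes and enriched with microbeads against EpCAM, a surface protein of epithelial cells. No sample was treated or mutant. Each CUT&RUN reaction used 100000 cells. In this method an antibody recruits a nuclease that cuts the chromatin beside the bound protein. The groups used were 3 NKX2-1, 2 PRDM16, 1 PRDM3 and 3 H3K4me3 libraries. The NKX2-1 and PRDM3 antibodies were raised in rabbit, the PRDM16 antibodies in rabbit for replicate 1 and in sheep for replicate 2.

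NKX2-1 is the homeodomain factor that sets and keeps the identity of lung epithelium, and it binds near genes of both alveolar cell types. Alveolar type 1 (AT1) cells are the thin cells of gas exchange, and alveolar type 2 (AT2) cells make surfactant. PRDM3, the product of Mecom, and PRDM16 are related proteins with a PR domain and zinc fingers. They recruit other chromatin proteins, and PRDM16 is best known from brown fat. H3K4me3 is a histone mark of active promoters. Bound regions without it can be enhancers, but no enhancer mark was measured here.

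No genome sequence of the build was used here, so sequence is shown only where a member ran into a promoter window of RefSeq (GRCm38.p6, the assembly of mm10). These chromosomes had 31396 such windows, each from 250 bases before to 50 bases after a start. Of these, 34 overlapped a member by at least 1 base, which is called lying under it here. In 27 of the 34 any upstream base lay inside the member, down to 8 bases for Gm32293. Motif shares given below count windows, not bases inside members. Among the 34 were 19 windows of protein-coding genes. The sequences below are the upstream bases that lay inside the member, for the 6 genes with the most such bases where the start was the outermost one listed and the upstream side lay in no other gene. They are shown because a member at a start without H3K4me3 is the exception among distal regions. They were chosen after their values were seen. Each is written 5′ to 3′ on the gene's strand, and capitals mark the 1 match to the NK2 homeobox motif TNAAGTG (both strands searched).
C1rb: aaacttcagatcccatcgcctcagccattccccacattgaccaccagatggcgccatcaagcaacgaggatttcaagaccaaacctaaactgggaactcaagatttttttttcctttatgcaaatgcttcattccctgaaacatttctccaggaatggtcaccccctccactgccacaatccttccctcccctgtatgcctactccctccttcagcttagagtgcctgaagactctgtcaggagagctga
Kcna4: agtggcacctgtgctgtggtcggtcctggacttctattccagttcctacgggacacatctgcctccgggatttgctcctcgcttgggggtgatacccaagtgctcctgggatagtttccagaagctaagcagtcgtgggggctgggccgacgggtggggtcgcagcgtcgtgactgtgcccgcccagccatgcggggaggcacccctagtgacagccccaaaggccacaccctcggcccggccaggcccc
Spag17: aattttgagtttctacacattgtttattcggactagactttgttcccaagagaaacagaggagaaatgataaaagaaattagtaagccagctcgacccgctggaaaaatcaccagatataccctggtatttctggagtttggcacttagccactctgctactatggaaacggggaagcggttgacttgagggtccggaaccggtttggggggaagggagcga
Selenbp2: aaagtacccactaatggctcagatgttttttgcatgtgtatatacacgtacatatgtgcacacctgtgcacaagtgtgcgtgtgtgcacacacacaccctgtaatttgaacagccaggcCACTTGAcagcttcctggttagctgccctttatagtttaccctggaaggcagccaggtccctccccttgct
Mc1r: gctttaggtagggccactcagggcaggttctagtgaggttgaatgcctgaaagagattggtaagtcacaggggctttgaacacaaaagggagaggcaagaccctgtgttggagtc
Olfml3: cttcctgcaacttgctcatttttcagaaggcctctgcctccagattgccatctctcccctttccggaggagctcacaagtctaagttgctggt

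These stretches were chr6:124570180-124570429 (C1rb, plus strand), chr2:107290339-107290588 (Kcna4, plus strand), chr3:99885167-99885388 (Spag17, plus strand), chr3:94693323-94693512 (Selenbp2, plus strand), chr8:123406832-123406946 (Mc1r, plus strand) and chr3:103738159-103738251 (Olfml3, minus strand). C1rb encodes a complement protease, Kcna4 a potassium channel and Spag17 a protein of the motile cilium. Selenbp2 encodes a selenium-binding protein, Mc1r the melanocortin receptor and Olfml3 a secreted olfactomedin-like protein. The Mc1r member had PRDM16 fold enrichments of 22.2 in replicate 1 and 3.12 in replicate 2, so the rabbit library alone was high there. Fold enrichment is the authors' deposited value for a peak, its signal divided by background. The Spag17 member had 3.50 and 5.33 in the PRDM16 libraries, and 5.76 and 2.83 in NKX2-1 replicates 1 and 3, with no peak in replicate 2. The NK2 motif was found in 6 of the 34 windows (17.6%, Wilson 95% interval 8.35 to 33.5, counting error only), against 11.6% of all windows. It was found in 18 of 62 windows under distal regions of all 3 proteins (29.0%) and in 11 of 50 under regions with neither PRDM protein (22.0%), so the members' share was the lowest of these distal classes, with overlapping intervals. The TEAD motif GGAATG was found in 11 of 34 (32.4%, 19.1 to 49.2), against 14.6% of all windows and 9 of 62 windows under distal regions of all 3 proteins (14.5%, 7.83 to 25.3), intervals that overlap. In all 14 motifs were searched, TEAD was singled out after its share was seen, and no test was made. A match to the CTCF motif, searched after the sequences were seen, lay in 1 of the 34 windows, that of C1rb, and in 0.573% of all windows.

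The number of members rested on some libraries more than on others. NKX2-1 replicate 1 had a peak in 1270 of the 1320 members (96.2%), replicate 2 in 725 (54.9%) and replicate 3 in 774 (58.6%). Replicates 1 and 2 alone supported 546 members, replicates 1 and 3 alone 595, replicates 2 and 3 alone 50, and all 3 replicates 129 (9.77%). Among distal regions that carried all 3 proteins, 23.7% had NKX2-1 in all 3 replicates, and among distal regions with neither PRDM protein 2.87% had. The last class has no PRDM3 peak and no PRDM16 stretch shared by both libraries, and 26.02% of it had a PRDM16 peak in replicate 1. Without NKX2-1 replicate 1 the rule found 191 members, without replicate 2 738, without replicate 3 676, and with PRDM16 replicate 1 as the only PRDM16 library 2145. NKX2-1 replicates 2 and 3 had weaker lists by the authors' own q: 10.98% and 13.2% of their autosomal peaks reached a −log10 q of 1.3 (q of 0.05), against 76.4% in replicate 1. Peak names in the lists carry a C number for both PRDM16 libraries, PRDM3, NKX2-1 replicate 1 and H3K4me3 replicate 1, and an H number for the others. The sources used here do not say what these letters mean. Read depth is unknown, and nothing says whether replicates came from separate pools of animals, so spread between libraries may be technical. H3K4me3 lay within 1 kb of an end of 4 of 4 AT1 markers, 4 of 4 AT2 markers and 4 of 4 epithelial markers, of 1 of 4 mesenchymal markers (Col1a1), of 1 of 3 endothelial markers (Kdr) and of 1 of 3 blood markers (Spi1), Gata1 lying outside the chromosomes used.

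The members were 16.5% of distal NKX2-1 regions (15.7 to 17.3) and 31.4% of the 4204 distal NKX2-1 regions with PRDM16 (30.0 to 32.8). Thus PRDM16 sat with PRDM3 at most of these sites, and the members were the smaller share. The share of distal regions that met the rule ranged from 13.4% on chromosome 7 to 18.9% on chromosome 17. Of regions with NKX2-1, PRDM16 and H3K4me3, 17.4% lacked PRDM3 (1902 of 10923). Members were narrower than distal regions of all 3 proteins, with a median NKX2-1 width of 246 bases against 325. Distal regions with neither PRDM protein had 199 bases, and those with PRDM3 and no PRDM16 stretch shared by both libraries had 230.

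Peak strength was modest at the members in both proteins. In PRDM16 replicate 1 the fold enrichment ran from 2.10 to 30.3 with a median of 4.85, and in replicate 2 from 2.02 to 21.0 with a median of 4.67. In NKX2-1 replicate 1 the median was 4.70 (2.26 to 25.5, 1270 members with a peak), in replicate 2 2.91 (2.19 to 6.51) and in replicate 3 3.17 (2.12 to 9.59). The values of NKX2-1 replicates 2 and 3 took only 38 and 44 different levels, with 190 members at 2.44 and 204 at 2.40. The same −log10 q of 1.3 was reached by 1149 members in PRDM16 replicate 1, 1066 in replicate 2, and 1135, 124 and 160 in NKX2-1 replicates 1 to 3.

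The rule asked for peaks in these 5 libraries in the same way for members and for distal regions of all 3 proteins. PRDM3 alone split the classes. The fold values were those of peaks that the rule used, and each region took its strongest overlapping peak. Regions of all 3 proteins were wider (median 325 bases against 246), and the part of width was not tested. Members had lower median log2 fold enrichment than regions of all 3 proteins in each of the 5 libraries. The difference was −0.53 and −0.45 in PRDM16 replicates 1 and 2, and −0.31, −0.16 and −0.01 in NKX2-1 replicates 1 to 3. The mean difference was −0.29 ± 0.21 (SD, n = 5 libraries, lower in 5 of 5, exact two-sided sign-flip permutation p = 0.0625, the smallest p that 5 libraries allow). The design therefore could not reach 0.05. The 5 libraries were of 2 proteins and were read over the same sets of regions. They are not independent replicates of 1 difference, and no conclusion is drawn from the p-values. In several alternatives, such as peaks with a −log10 q from 1.3 up, members were lower in 4 of 5 libraries (mean −0.29, exact two-sided p = 0.125), and without NKX2-1 replicate 1 in 3 of 4 (mean −0.35, exact p = 0.25). Within the 3 libraries with C numbers the mean was −0.43, and within the 2 with H numbers −0.09, so the letter series moved with the size of the difference. Its part in the result was not tested. Lower NKX2-1 values were not particular to the members. The 618 distal NKX2-1 regions with PRDM3 and no shared PRDM16 stretch had median fold enrichments of 4.55, 2.91 and 2.85. These were for NKX2-1 replicates 1 to 3, where members had 4.70, 2.91 and 3.17.

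**Figure D1:**
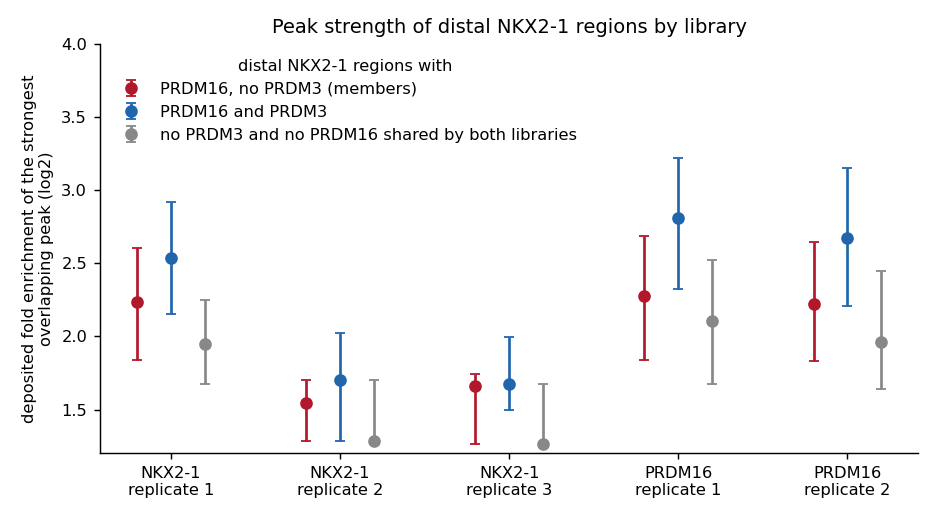
Median fold enrichment (log2, deposited values) of the strongest peak over each distal NKX2-1 region, by library, with quartiles as bars, for members, regions of all 3 proteins, and regions with neither. Members lie below regions of all 3 proteins in both PRDM16 libraries (−0.53 and −0.45) and differ little in NKX2-1 replicate 3 (−0.01).

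Distal regions of NKX2-1 and PRDM16 were then ranked by strength within each library and cut into 10 equal groups, to see where the regions without PRDM3 fell. The members were concentrated among the weaker ones. By PRDM16 replicate 1, 58.2% of the weakest group lacked PRDM3 (53.4 to 62.8) and 11.2% of the strongest group (8.52 to 14.6). By PRDM16 replicate 2 the shares were 49.2% and 10.95%. NKX2-1 replicate 1 gave 50.1% and 12.9%, replicate 2 36.2% and 14.2%, and replicate 3 39.0% and 15.5%. In NKX2-1 replicates 2 and 3 the weakest group did not hold the highest share. That was group 3 in replicate 2 (44.2%) and group 2 in replicate 3 (40.1%). Many values were tied there, and equal values were split between groups by their order in the genome. In all 5 libraries the strongest group held the lowest share. The PRDM3 list came from 1 library, and a region counts as lacking PRDM3 when that list has no peak there. A weak PRDM3 signal and none cannot be told apart from the list.

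**Figure D2:**
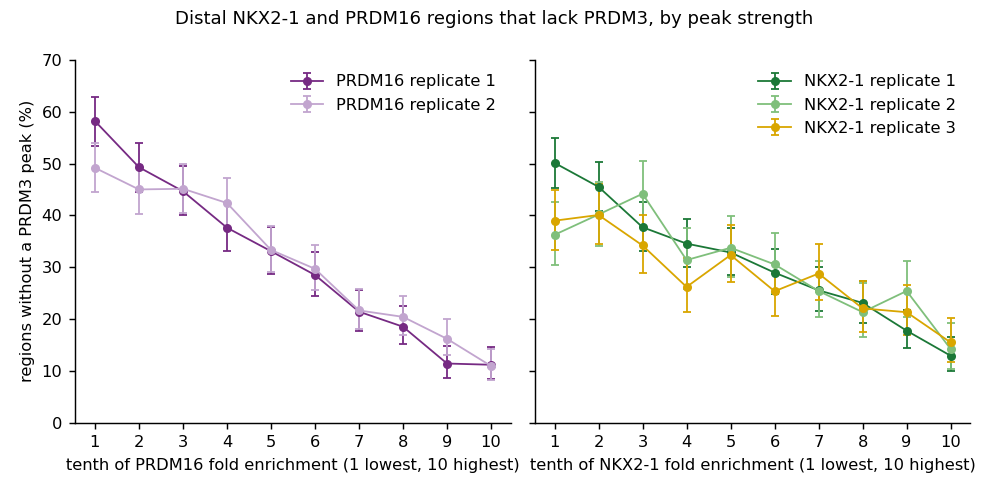
Share of distal NKX2-1 and PRDM16 regions without a PRDM3 peak (percent, vertical axis) by group of fold enrichment, from weakest to strongest, in each PRDM16 library (left) and NKX2-1 library (right), with Wilson 95% intervals as bars. The share falls from 58.2% to 11.2% for PRDM16 replicate 1 and from 50.1% to 12.9% for NKX2-1 replicate 1.

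The 2 PRDM16 antibodies ranked the members only loosely alike. Across the 1320 members, which share libraries and background, the log2 fold enrichments of the 2 libraries had a Pearson r of 0.23 and a Spearman correlation of 0.22. Over distal regions of all 3 proteins these were 0.33 and 0.33. NKX2-1 replicate 1 and PRDM16 replicate 1 gave a Pearson r of 0.28 over members. At 218 members (16.5%) the 2 PRDM16 values lay more than 2-fold apart, against 19.6% of regions of all 3 proteins. The rabbit library exceeded the sheep library more than 4-fold at 15 members, and the reverse held at 3. A member inside Vwf, the gene of von Willebrand factor, had 18.6 in the rabbit and 2.33 in the sheep library. Members near Id1 (3.09 and 14.5) and Lpin2 (3.64 and 14.8) leaned the other way, with PRDM3 peaks 390 and 8 bases away.

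**Figure D3:**
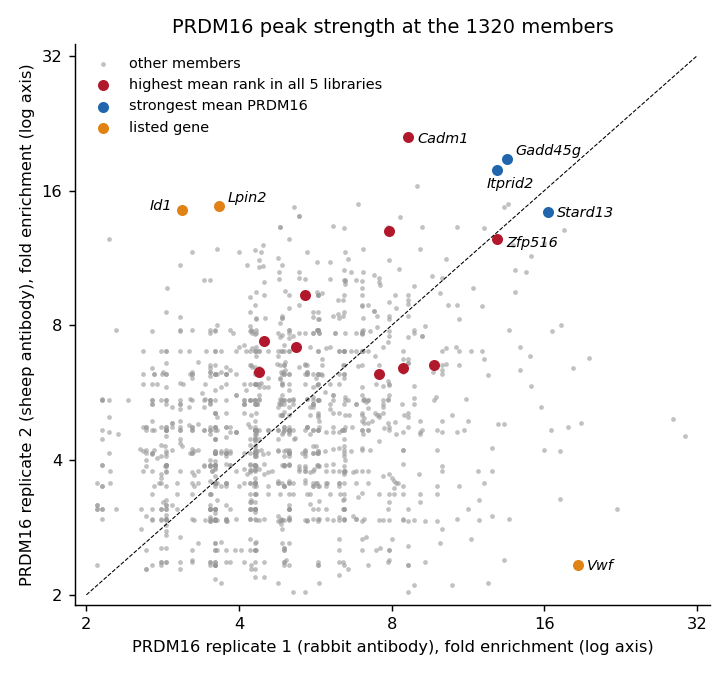
Fold enrichment at each of the 1320 members in the rabbit (horizontal) and sheep (vertical) PRDM16 libraries, on log axes, with the dashed line marking equal values. Red points are the 10 members with the best mean rank over 5 libraries and blue points the 3 with the strongest mean PRDM16; Vwf (18.6 and 2.33) lies far from the line.

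Summits, the highest points of peaks, were further apart in members than in regions of all 3 proteins. The median distance from an NKX2-1 to a PRDM16 summit ran from 155 to 209 bases over the 6 pairs of libraries in members, and from 115 to 154 bases in regions of all 3 proteins. The 2 PRDM16 libraries' own summits lay a median of 130 bases apart in members and 91 in the other class. The distances between proteins were thus about as large as those between replicates of NKX2-1 in members (138 to 198 bases).

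Many members lay near a PRDM3 peak in the full lists. The median gap to the nearest PRDM3 peak was 3083 bases, with 37.0% of members within 1 kb (34.5 to 39.7) and 70.8% within 10 kb (68.3 to 73.2). At a −log10 q from 1.3 up in the factor libraries, 297 regions met the rule, with a median gap of 11451 bases. The weaker PRDM3 peaks are left out there too, so some of the 297 can be regions that were not members before. Distal NKX2-1 regions with neither PRDM protein had a median gap of 7770 bases, with 21.4% within 1 kb and 54.7% within 10 kb. At the border of the rule, 160 members had a PRDM3 peak within 100 bases, the smallest gap being 0 bases. On the other side, 115 of the 2884 regions of all 3 proteins had under 50 bases over a PRDM3 peak, down to 1 base. A PRDM16 peak of 430 members (32.6%) touched a PRDM3 peak at its other end. When these were left out as well, an alternative chosen after seeing the data, 890 members remained. Where no PRDM3 peak was allowed within 1 kb, 831 remained. The median member was covered over 86.5% of its length by PRDM16 in both libraries, 155 members had under 50 bases of such cover, and 46 members were 20 to 49 bases long.

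**Figure D4:**
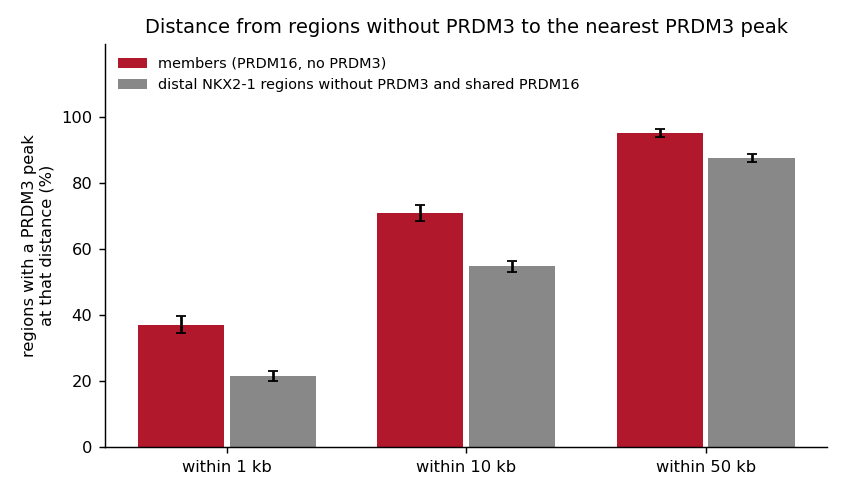
Share of members and of distal NKX2-1 regions without either PRDM protein (percent, bars from 0, with Wilson 95% intervals) that have a PRDM3 peak within 1, 10 and 50 kb. Members are nearer: 37.0% against 21.4% within 1 kb and 70.8% against 54.7% within 10 kb.

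In the genome, 726 members (55.0%, 52.3 to 57.7) had their midpoint inside a protein-coding gene, against 51.9% of regions of all 3 proteins and 50.7% of those with neither. Exons, introns and UTRs were not told apart. The median distance to the nearest end of a gene was 22756 bases in members, 26923 in regions of all 3 proteins and 23420 in regions with neither. Members within 1 kb of a gene end numbered 67 (5.08%, 4.02 to 6.396), against 2.46% and 6.43%. Another 184 members (13.9%) lay more than 100 kb from any gene end. The median gap to an H3K4me3 peak was 24927 bases, and 128 members (9.70%, 8.22 to 11.4) had such a peak within 1 kb. Members rarely came in groups: 19.02% had another member within 50 kb, and 31.7% had a region of all 3 proteins at that distance. Hairpins of 2 miRNAs, Mir6349 and Mir344i, lay under members.

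The 10 members with the best mean rank over all 5 libraries were chosen by these values, which are given as a description. Not each value was high: Loxl1 and Comtd1 members lay below the members' median in PRDM16 replicate 1. A 583-base member at chr16:64757873-64758455, 4041 bases from 4930453N24Rik, had 12.2, 3.26 and 4.00 in NKX2-1 replicates 1 to 3, and 7.89 and 13.0 in PRDM16 replicates 1 and 2. A member inside Plbd1, a phospholipase-like gene (chr6:136620342-136621018), had 6.78, 4.07 and 5.59 for NKX2-1, and 8.40 and 6.42 for PRDM16. Of these 10, the member nearest to Cadm1, an adhesion molecule, lay 115559 bases from it and had the highest sheep-antibody value, 21.0, beside 8.62 with the rabbit antibody. A member inside Lingo1 (chr9:56766683-56767137) had 8.59, 4.37 and 3.20 for NKX2-1, and 5.18 and 7.15 for PRDM16. Those near Loxl1, a crosslinking enzyme of elastin, and Lig4, a DNA ligase, lay 12581 and 34822 bases away, with PRDM16 values of 4.38 and 6.31, and 9.71 and 6.53. Of the other 4, 1 lay inside Negr1 and 1 was 1368 bases from Comtd1, while the nearest gene ends were 57795 bases away for Gm572 and 155358 for Zfp516. Their PRDM16 values lay between 4.48 and 12.9. A PRDM3 peak lay 36 to 247 bases from 6 of the 10, and 1176 to 7645 bases from the other 4.

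By mean PRDM16 alone, the 3 strongest members lay near Gadd45g, inside Stard13 and inside Itprid2. Gadd45g encodes a stress-response protein, and its member 63737 bases away had 13.5 and 18.8. The Stard13 member had 16.3 and 14.3. The Itprid2 member had 12.9 and 17.8. Each had NKX2-1 in 2 libraries only, and PRDM3 peaks lay 44, 512 and 165 bases away.

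A gene was called linked when its end was the nearest protein-coding gene end within 50 kb of a member's midpoint. Of 20665 protein-coding genes 851 were linked, a background of 4.12%, and 1031 were linked to or held a member, a background of 4.99%. Among 447 genes of 24 lists, which cover lung epithelium, signalling pathways, other cell types and controls, 43 were linked (9.62%) and 53 were linked or held a member (11.9%). These list counts moved with the libraries used: without NKX2-1 replicate 1, 3 of the 447 genes were linked, without replicate 2 19 and without replicate 3 22, and at a −log10 q from 1.3 up 12 were. The lists were not matched to other genes for length or for the spacing of their neighbours, and a longer gene can hold more regions. A link is nearness only, and no expression was measured. Of the linked genes 778 had 1 member, 68 had 2 and 5 had 3 or more. Some nearest genes were shared with regions of all 3 proteins: 237 genes were linked to both. They were 27.8% of genes linked to a member and 15.8% of the 1503 linked to a region of all 3 proteins. The last share stands beside the background of 4.12% for a link to a member.

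**Figure D5:**
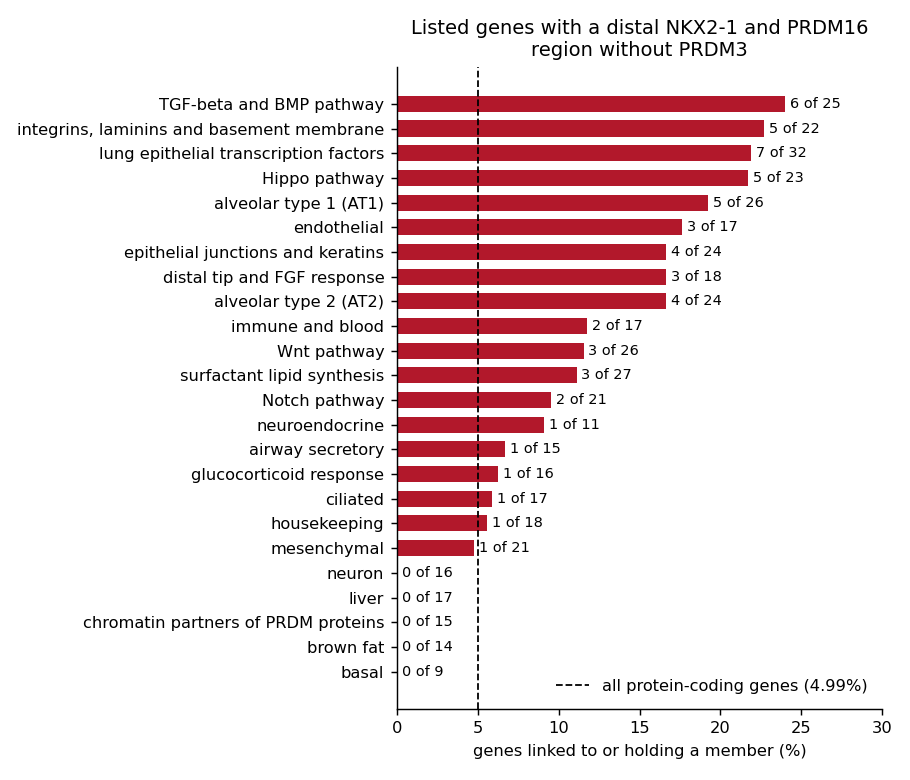
Share of each gene list that was linked to or held a member (percent, bars from 0), with counts beside the bars and a dashed line at 4.99%, the share over all protein-coding genes. The TGF-beta and BMP list (6 of 25) and the basement membrane list (5 of 22) have the longest bars, and 5 lists have no gene with a member.

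Of 26 AT1 genes 5 had a member: Hopx, Cldn18, Igfbp2, Ahnak and Col4a4, while 15 were linked to a region of all 3 proteins. Cldn18 encodes the claudin of alveolar tight junctions, and its member lay inside the gene, 2048 bases from an end (chr9:99715111-99715327). It had 4.75 and 2.19 in NKX2-1 replicates 1 and 2, no peak in replicate 3, and 6.30 and 3.55 for PRDM16. Hopx encodes a homeodomain-only cofactor of AT1 cells. Its member, 30040 bases away, was weak in PRDM16 replicate 2 (2.28, against 4.23 in replicate 1). Igfbp2, a secreted binding protein of insulin-like growth factors, held a member with 3.77 and 2.92 for PRDM16 and no NKX2-1 peak in replicate 1. None of the 5 had NKX2-1 in all 3 libraries. Without NKX2-1 replicate 1, 1 AT1 gene was linked, and at a −log10 q from 1.3 up 3 were. Of the regions of these 5 genes, only that of Col4a4 met the rule at that q. Weaker PRDM3 peaks are left out there too, so other regions can enter.

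Of 24 AT2 genes 4 had a member: Abca3, Sftpb, Slc39a8 and Etv5. By nearest end 3 were linked, against 1 without NKX2-1 replicate 1 and 0 at a −log10 q from 1.3 up. Abca3 moves phospholipid into lamellar bodies, where surfactant is stored. The member inside it (chr17:24359267-24359466), whose nearest gene end is that of Abca17, had 4.73 and 4.07 in NKX2-1 replicates 1 and 2, and 5.90 and 5.67 for PRDM16. A PRDM3 peak lay 254 bases away. Sftpb encodes surfactant protein B, and its member lay 31982 bases from the gene end. It had 5.44 and 3.26 for NKX2-1 in replicates 1 and 2, and 4.79 and 5.35 for PRDM16, with a PRDM3 peak 221 bases away. Slc39a8, a metal ion transporter, held a stronger member (8.40 and 4.20 for PRDM16, 7.39 in NKX2-1 replicate 1) with the nearest PRDM3 peak 34356 bases away. In the list of surfactant lipid synthesis 3 of 27 genes had one: Abca3, Lpin2, a phosphatidate phosphatase, and Pnpla2, a triglyceride lipase. The Pnpla2 member lay 794 bases from the gene end and had 11.8 and 3.78 for PRDM16 and 10.1 in NKX2-1 replicate 1. A PRDM3 peak lay 651 bases from this member, and an H3K4me3 peak lay within 1 kb.

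Transcription factors of lung epithelium had 7 of 32 genes with a member: Nfia, Irx2, Grhl2, Elf3, Tfcp2l1, Sox9 and Etv5. By an end 6 were linked, against 1 without NKX2-1 replicate 1. Nfia, a nuclear factor I gene, held 3 members. The strongest (chr4:98003471-98003736) had 9.29 and 7.99 for PRDM16 and 8.94 and 2.83 in NKX2-1 replicates 1 and 3, and a PRDM3 peak began 17 bases away. The others had PRDM16 values of 6.28 and 5.09, and of 3.50 and 3.89. Irx2, an Iroquois homeobox gene, had 2 members, 14259 and 27319 bases away, with 5.02 and 7.70, and 6.13 and 4.63. Grhl2, a grainyhead factor that maintains epithelial junctions, had 1 member 34498 bases away (3.07 and 5.96). Sox9, a factor of the distal lung tip, had 1 member 566 bases from its end with PRDM16 values of only 2.69 and 2.96. A PRDM3 peak lay 32 bases from this member, and an H3K4me3 peak lay within 1 kb. With Etv5 and Spry1, both induced by FGF signals, Sox9 made up 3 of 18 genes of the distal tip and FGF list.

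The Hippo list had 5 of 23 genes with a member. All 5 were linked by their ends, and 0 were without NKX2-1 replicate 1 or at a −log10 q from 1.3 up. Mob1b, an activator of the LATS kinases, had a member with 3.58 and 3.82 for PRDM16. Wwtr1, the coactivator TAZ, held one with 4.79 and 10.5 (chr3:57471290-57471466), with 5.79 and 2.91 in NKX2-1 replicates 1 and 2. Tead4, a DNA-binding partner of TAZ, held one with 4.30 and 4.31. Vgll4, which competes for TEAD proteins, held one with 6.45 and 2.94. Ccn2, a secreted protein and well-known target of the pathway, had a member 3968 bases away with 10.0 and 4.90. No Hippo member had NKX2-1 in all 3 libraries.

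The list of TGF-beta and BMP signals had 6 of 25 genes with a member. By nearest end 5 were linked, against 0 without NKX2-1 replicate 1 and 1 at a −log10 q from 1.3 up. The ligand gene Tgfb2 had one 41765 bases away with 8.62 and 8.40 for PRDM16 and 7.04 and 2.44 in NKX2-1 replicates 1 and 2. Ltbp1, which holds latent TGF-beta in the matrix, contained 2, with 6.47 and 10.1, and 3.23 and 4.67. The coreceptor gene Tgfbr3 had one with 5.02 and 4.67. Smad7, the inhibitory SMAD, had one with 4.48 and 3.72. Id1 and Id3, inhibitors of bHLH factors that BMP signals induce, had members 3285 and 4909 bases away. The Id3 member had 5.76 and 8.27 for PRDM16, and 5.05 and 6.51 in NKX2-1 replicates 1 and 2.

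Basement membrane genes had 5 of 22 with a member, 4 of them linked by an end and 0 without NKX2-1 replicate 1: Lama5 and Lamc1, which encode laminin chains, and Col4a1, Col4a2 and Col4a4, which encode collagen IV chains. Lamc1 had 2 members, 1 inside the gene with 5.69 and 11.1 for PRDM16 and 1 outside with 5.45 and 6.22. The Lama5 member, 8903 bases away, had 7.54 and 10.0, and the Col4a2 member 11.3 and 4.89. Junction and keratin genes had 4 of 24, among them Cldn3, Ocln and Tjp1, which encode tight junction proteins. The Ocln member (chr13:100518357-100518612), inside the gene of occludin, had 5.37 and 2.44 in NKX2-1 replicates 1 and 2, and 4.20 and 9.23 for PRDM16. The Cldn3 member, 12512 bases away, had 6.47 and 5.05 for PRDM16.

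Other signalling lists had fewer. In the Wnt list 3 of 26 genes had a member: Lrp6, a Wnt coreceptor, Tcf7l2, a DNA-binding partner of beta-catenin, and Znrf3, a ligase that removes Wnt receptors. The Znrf3 member had 6.45 and 6.22 for PRDM16. In the Notch list 2 of 21 had, both mastermind coactivators: Maml3 held 3 members, the strongest with 6.13 and 13.4, and Maml2 held 1 with 6.29 and 6.23. No Notch gene was linked by its end. In the glucocorticoid list 1 of 16 had, Fkbp5, a cochaperone of the receptor, with 3.20 and 5.47.

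Lists of other cell types and control lists gave 0 to 3 genes each. The endothelial list had 3 of 17, Cdh5, Pecam1 and Vwf, while 1 of its genes was linked to a region of all 3 proteins. The immune and blood list had 2 of 17 (Fcer1g and Spi1). As shares, the endothelial list had 17.6% and the immune and blood list 11.8%. These were no lower than, or close to, 16.7% of the AT2 list and 11.9% over all lists. The share over all protein-coding genes was 4.99%. The secretory, ciliated, neuroendocrine, mesenchymal and housekeeping lists had 1 each (Bpifb1, Dnah9, Chgb, Twist2 and Tfrc). The basal, liver, neuron and brown fat lists and the list of chromatin partners of PRDM proteins had 0. The Pecam1 member was 21 bases long and had 4.23 and 3.11 for PRDM16, and the Cdh5 member had 6.45 and 3.12. H3K4me3 lay near an end of 1 of 3 endothelial and 1 of 3 blood markers, as given above, and the part of such cells in these members was not tested.

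Gab1, an adaptor of receptor tyrosine kinases, had 5 linked members, more than any other gene, 3 of them inside it. Their PRDM16 values ran from 3.84 to 6.81 in replicate 1 and from 2.37 to 8.48 in replicate 2. A pair of them (chr8:80753473-80753535 and chr8:80753580-80753678) lay under the same PRDM16 peaks and are not independent. Camk2d, a calcium-dependent kinase, Egfr, the receptor of epidermal growth factor, Lifr, the receptor of leukaemia inhibitory factor, and Stk39, a kinase that controls ion transporters, had 3 each. One Camk2d member lay 62 bases from the gene's end with 13.6 and 2.44 in NKX2-1 replicates 1 and 2, and 9.96 and 9.45 for PRDM16. A PRDM3 peak lay 8 bases from this member, and an H3K4me3 peak lay within 1 kb. The 3 Egfr members had PRDM16 values between 3.07 and 7.78. By members inside the gene, Fmn1, Lifr and Stk39 led with 4 each. Over all members, 54 shared a PRDM16 replicate 1 peak with another member.

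None of the members was linked to or lay inside the genes of the 3 proteins themselves. The nearest lay 126602 bases from Nkx2-1, 226768 from Prdm16 and 2304160 from Mecom. Prdm16 held 6 regions of all 3 proteins and Mecom 2.

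Genes linked to a member mostly had an H3K4me3-marked start elsewhere. Of 654 such genes with a listed promoter, 499 had H3K4me3 at a start (76.3%, 72.9 to 79.4), against 57.9% of all 16457 genes with a listed promoter. The share was 78.9% for genes linked to a region of all 3 proteins and 73.2% for those linked to a region with neither. NKX2-1 lay at a start of 58.7% of genes linked to a member, PRDM16 at 65.9% and PRDM3 at 58.3% (54.4 to 62.0), against 41.0%, 45.6% and 41.9% of all genes. The other classes were similar: 57.6%, 69.7% and 64.8% for genes linked to a region of all 3 proteins, and 55.8%, 61.7% and 56.1% for those linked to a region with neither. PRDM3 thus lay at the starts of many genes whose distal member lacked it.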

How the data were processed

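CUT&RUN peak lists of 9 of the 12 samples were used, 1 list per sample. The 3 IgG samples were not analysed here. Per the submitters' processing notes, reads were handled with Bowtie2, Trimmomatic, HOMER and MACS2 on build mm10. The sources used here give no settings and do not say whether a control entered the calling. The authors deposited for each peak a fold enrichment over background (a ratio), a −log10 p, a −log10 q, a score and a summit. Fold values were used within a library only, and a region took its strongest overlapping peak. The members and the gene lists were chosen with earlier results of these data known. Overlap meant at least 1 base, and Wilson 95% intervals cover counting error only. The 24 lists hold 460 genes, of which 447 were matched to RefSeq genes on chromosomes 1 to 19. Named are the 10 members ranked highest over 5 libraries, up to 3 genes per list and others found beside them, the genes with the most members, the 3 proteins' own genes and the 3 strongest PRDM16 members. The rule and test were tested on simulated data. Python 3.11.15, numpy 2.4.6, pandas 2.3.3, scipy 1.17.1 and matplotlib 3.10.9 were used.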

Additional observations from a re-analysis of the deposited data

Results flagged for a closer look

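Chromosome X was outside the rule, yet 27 of its 101 distal NKX2-1 regions met the same conditions, and 0 of 21 did on chromosome Y. On chromosomes 1 to 19 the share was 16.5%, with 13.4% to 18.9% on single chromosomes. These 27 regions were flagged as a signal in data that the comparisons did not use. Their median fold enrichment was 5.02 and 4.14 in PRDM16 replicates 1 and 2, and 4.75 in NKX2-1 replicate 1. They included 3 regions inside Mid1, a gene named after its values were seen.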

How the results depend on the processing

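The number of members and the gene links moved with the peak threshold, the number of NKX2-1 libraries required and the libraries left out. Leaving out 1 library at a time gave 191 to 2145 members, 9.28% to 26.8% of distal regions, 20.4% to 40.0% of distal PRDM16 regions lacking PRDM3, 3 to 74 listed genes linked, a median distance to a gene end of 20468 to 23742 bases, a median gap to PRDM3 of 2761 to 3675 bases and a mean summit distance of 153 to 193 bases. At a −log10 q of at least 1.3 in the factor libraries there were 297 members, 19.2% of distal regions, 27.3% lacking PRDM3, 12 listed genes, summits 149 bases apart, and gaps of 11451 bases to PRDM3 and 29406 to H3K4me3. At a −log10 q of at least 5 these were 12, 15.0%, 21.1%, 1, 44.2, 103256 and 42525, with 33.3% inside a gene and 48143 bases to a gene end. The 20000 strongest peaks per library gave 204, 9.11%, 19.3%, 7, 151, 4484 and 28684, with 52.0% inside a gene. NKX2-1 in all 3 libraries gave 139, 13.5%, 16.7%, 0, 143, 2345 and 28461. With no PRDM3 peak within 1 kb there were 831 members, 10.4%, 19.8% lacking PRDM3, 25 listed genes, summits 150 bases apart and a gap of 8913. Requiring overlaps to span 50% of the shorter region gave 35.8% lacking PRDM3 and a gap of 1346, stretches of at least 100 bases 29.8% lacking PRDM3, and no H3K4me3 peak within 1 kb gaps of 3725 to PRDM3 and 30843 to H3K4me3. Links within 10 kb gave 17 listed genes. Of alternatives added after seeing the data, excluding PRDM3 along the whole PRDM16 peaks gave 11.1%, 21.2%, 28 listed genes, summits 149 bases apart and a gap of 7734. NKX2-1 replicate 1 alone gave 4724 members, 14.2%, 42.3%, 119 listed genes, 20253 bases to a gene end and a gap of 5397. PRDM16 peaks limited to a −log10 q from 1.3 up gave 11.8%, 26.7%, 27 listed genes and a gap of 2248. The cause of these changes was not tested. The mean strength difference stayed below 0 in 19 of 19 settings. Of 101 named regions, 25 met the rule at a −log10 q of at least 1.3 and 52 with no PRDM3 peak within 1 kb. Of 528 counts for single lists, 307 stayed within 1.5 times the main count. Motif shares over all members were not run, since no genome was used. Read depth is unknown, and PRDM3 rests on 1 library. No paired analysis was possible because libraries of different antibodies share only a replicate number and PRDM3 has 1 library.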

Other observations

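Members also lay over promoter windows of Ccdc181, Cfap126 and Cibar2, which were singled out after their values were seen. The Ccdc181 member had 6.30 and 8.29 in PRDM16 replicates 1 and 2, and 5.05 and 2.40 in NKX2-1 replicates 1 and 3. The Cfap126 member had 3.40 and 5.45 for PRDM16 and no peak in NKX2-1 replicate 1. The Cibar2 member had 3.58 and 4.20 for PRDM16 and 6.57 in NKX2-1 replicate 1. Ccdc181 and Cfap126 had H3K4me3 at another listed start, while Cibar2 had none.

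The promoter windows under members also held the glucocorticoid receptor motif ACANNNTGT in 6 of 34 (17.6%, 8.35 to 33.5), against 6.90% of all windows and 3 of 62 under regions of all 3 proteins (4.84%, 1.66 to 13.3). These intervals overlap, 14 motifs were searched, and no test was made.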
